A study of Homo sapiens with 6 samples.

Results

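The proteins of the mitochondrial ribosome that carry MRPL or MRPS gene symbols were examined in TFK1 cells with and without STUB1 overexpression. Genes were taken by symbol alone, as MRPL or MRPS followed by a number and an optional letter A to C, so no measured value entered the choice. The rule found 78 genes among the 23569 listed, 49 of the large subunit (MRPL) and 29 of the small subunit (MRPS). TFK1 is a human cholangiocarcinoma cell line that derives from a tumour of the extrahepatic bile duct. Both groups were TFK1 cells transduced with lentivirus and selected with puromycin, so the controls carry the vector and the selection too. Cells with the negative control vector form the group oeNC (n = 3 libraries), and cells with the STUB1 vector, which encodes an E3 ubiquitin ligase that works with chaperones, form the group oeSTUB1 (n = 3 libraries). The labels list no further treatment. Each group appears to be 1 stable population, and the labels do not say that the libraries came from separate cultures, so p-values measure the spread between these libraries, which may be technical. The difference between the populations and the effect of STUB1 cannot be told apart in this design. STUB1 itself was 32.9, 33.0 and 30.9 FPKM in oeNC and 61.4, 75.0 and 61.9 FPKM in oeSTUB1. FPKM relates the fragments of a gene to its length and to the library total. The log2 fold change of STUB1 was 1.03 (SE 0.0966, adjusted p = 0.000642 from limma).

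Mitochondria keep their own ribosome, which makes a small set of hydrophobic subunits of the respiratory chain and the ATP synthase from messenger RNAs of the mitochondrial genome. Its ribosomal RNAs are encoded in the mitochondria, whereas its proteins are encoded in the nucleus, made in the cytosol and imported. The small subunit holds the messenger RNA and the decoding centre, and the large subunit forms the peptide bond and passes the new chain through its exit tunnel to the inner membrane. Part of the proteins have counterparts in bacteria, and the others are particular to mitochondrial ribosomes.

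Library totals lay between 33106564 and 36744521 fragments, as recovered from the FPKM values. The library oeSTUB1-2 stood apart from the others. The chi-square per degree of freedom over genes was 76.7 between oeSTUB1-2 and oeSTUB1-1 and 71.1 between oeSTUB1-2 and oeSTUB1-3, against 3.37 to 9.82 for the other pairs within groups. The mean length of the genes, weighted by fragments, was 4207 bases in oeSTUB1-2 and 4736 to 4891 bases in the other 5 libraries. The main results are therefore given with and without oeSTUB1-2. All 7 markers of biliary and simple epithelium had a mean of at least 1 FPKM, with a summed level of 7419 to 7996 FPKM in oeNC and 4724 to 6263 FPKM in oeSTUB1, and the part of this difference in the results was not tested. The genes KRT8 (log2 fold change -0.57), KRT18 (-0.68), EPCAM (-1.13) and CDH1 (-1.09) fell and KRT19 (2.47) rose at an adjusted p under 0.05. KRT19, a keratin typical of bile ducts, was low, at 0.453 ± 0.0776 FPKM in the controls and 2.97 ± 0.454 FPKM in oeSTUB1 (SD, n = 3 each). Of 3 leukocyte, 4 fibroblast, 3 endothelial and 4 hepatocyte markers, 2 reached 1 FPKM, the macrophage gene CD68 and the collagen gene COL1A1. COL1A1 went with a summed fibroblast level of 1.24 to 2.26 FPKM in oeNC and 1.96 to 3.81 FPKM in oeSTUB1. CD68, which many cell lines express in their lysosomes, had a mean of 27.2 ± 0.442 FPKM in the controls and 19.2 ± 0.163 FPKM in oeSTUB1 (SD, n = 3 each), and the defining leukocyte genes PTPRC and CD3E were below 1 FPKM.

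The genes were expressed at moderate levels that differed widely among themselves. Over the 6 libraries, the median of the mean levels was 26.9 FPKM for the large subunit and 20.9 FPKM for the small subunit genes that passed the filter of 0.1 FPKM. The highest means of the large subunit were those of MRPL12 (116 FPKM), MRPL51 (107 FPKM), MRPL33 (98.3 FPKM), MRPL24 (77.2 FPKM) and MRPL53 (60.4 FPKM). In the oeNC libraries MRPL12 (98.7 ± 3.93 FPKM) and MRPL51 (97.4 ± 3.77 FPKM) overlapped, whereas MRPL33 (87.3 ± 4.85 FPKM), MRPL24 (70.5 ± 0.60 FPKM) and MRPL53 (59.0 ± 2.18 FPKM, SD, n = 3 each) followed without overlap. The lowest MRPL51 value (94.0 FPKM) lay close to the highest MRPL33 value (92.8 FPKM), and whether this gap exceeds counting error was not tested. The lowest means were those of MRPL42 (4.24 FPKM), MRPL39 (6.56 FPKM) and MRPL50 (7.91 FPKM). In the small subunit MRPS34 (77.8 FPKM), MRPS7 (71.6 FPKM), MRPS35 (61.1 FPKM), MRPS12 (57.6 FPKM) and MRPS26 (51.0 FPKM) were highest, and MRPS33 (8.70 FPKM) and MRPS28 (4.35 FPKM) were the lowest with a level that could be tested. In the oeNC libraries alone the order was MRPS34 (72.7 ± 3.42 FPKM), MRPS7 (63.9 ± 2.75 FPKM), MRPS35 (57.4 ± 1.37 FPKM), MRPS16 (49.7 ± 0.590 FPKM), MRPS12 (49.1 ± 0.0836 FPKM) and MRPS26 (45.5 ± 3.51 FPKM, SD, n = 3 each), where MRPS16 is named after its values were seen. MRPS16 and MRPS12 lay close together there without overlap, and whether this gap exceeds counting error was not tested. MRPS24 held 0 or 1 fragment in each library and did not pass the filter, so 77 of the 78 genes were tested. In GENCODE release 29 its exons share 606 bases with those of URGCP-MRPS24 on the same strand, and fragments that fit both genes may not be counted for MRPS24.

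In the comparison of all 6 libraries, 2 large subunit genes rose after STUB1 overexpression, MRPL36 and MRPL32, and 1 fell, MRPL10. No small subunit gene passed the test in limma, and limma-voom on recovered fragments also called 0. At an unadjusted p under 0.05 in limma, 6 of the 28 were higher and 1 was lower, against 2454 and 2100 of all 15353 genes. The 3 calls are 3.90% of the 77 genes tested, against 13.6% of all 15353 genes tested, with 7.01% higher and 6.59% lower. In these bulk libraries fewer expressing cells and less RNA per cell cannot be told apart. None of the 77 genes passed the test with a log2 fold change past 1, a combined criterion that 5.2% of all genes met. The direction of most was upwards all the same, with 42 of 49 large and 21 of 28 small subunit genes above 0, which is 81.8% of the genes against 52.6% of all genes. The median log2 fold change was 0.22 for the large subunit, 0.12 for the small subunit and 0.019 for all genes. Every oeSTUB1 library lay above every oeNC library in 27 of the 77 genes and below in 5, where the share of all genes was 21.5% above and 17.3% below. With median-ratio scaling the calls were 0 higher and 1 lower, and with quantile normalization 2 higher and 3 lower.

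**Figure D1:**
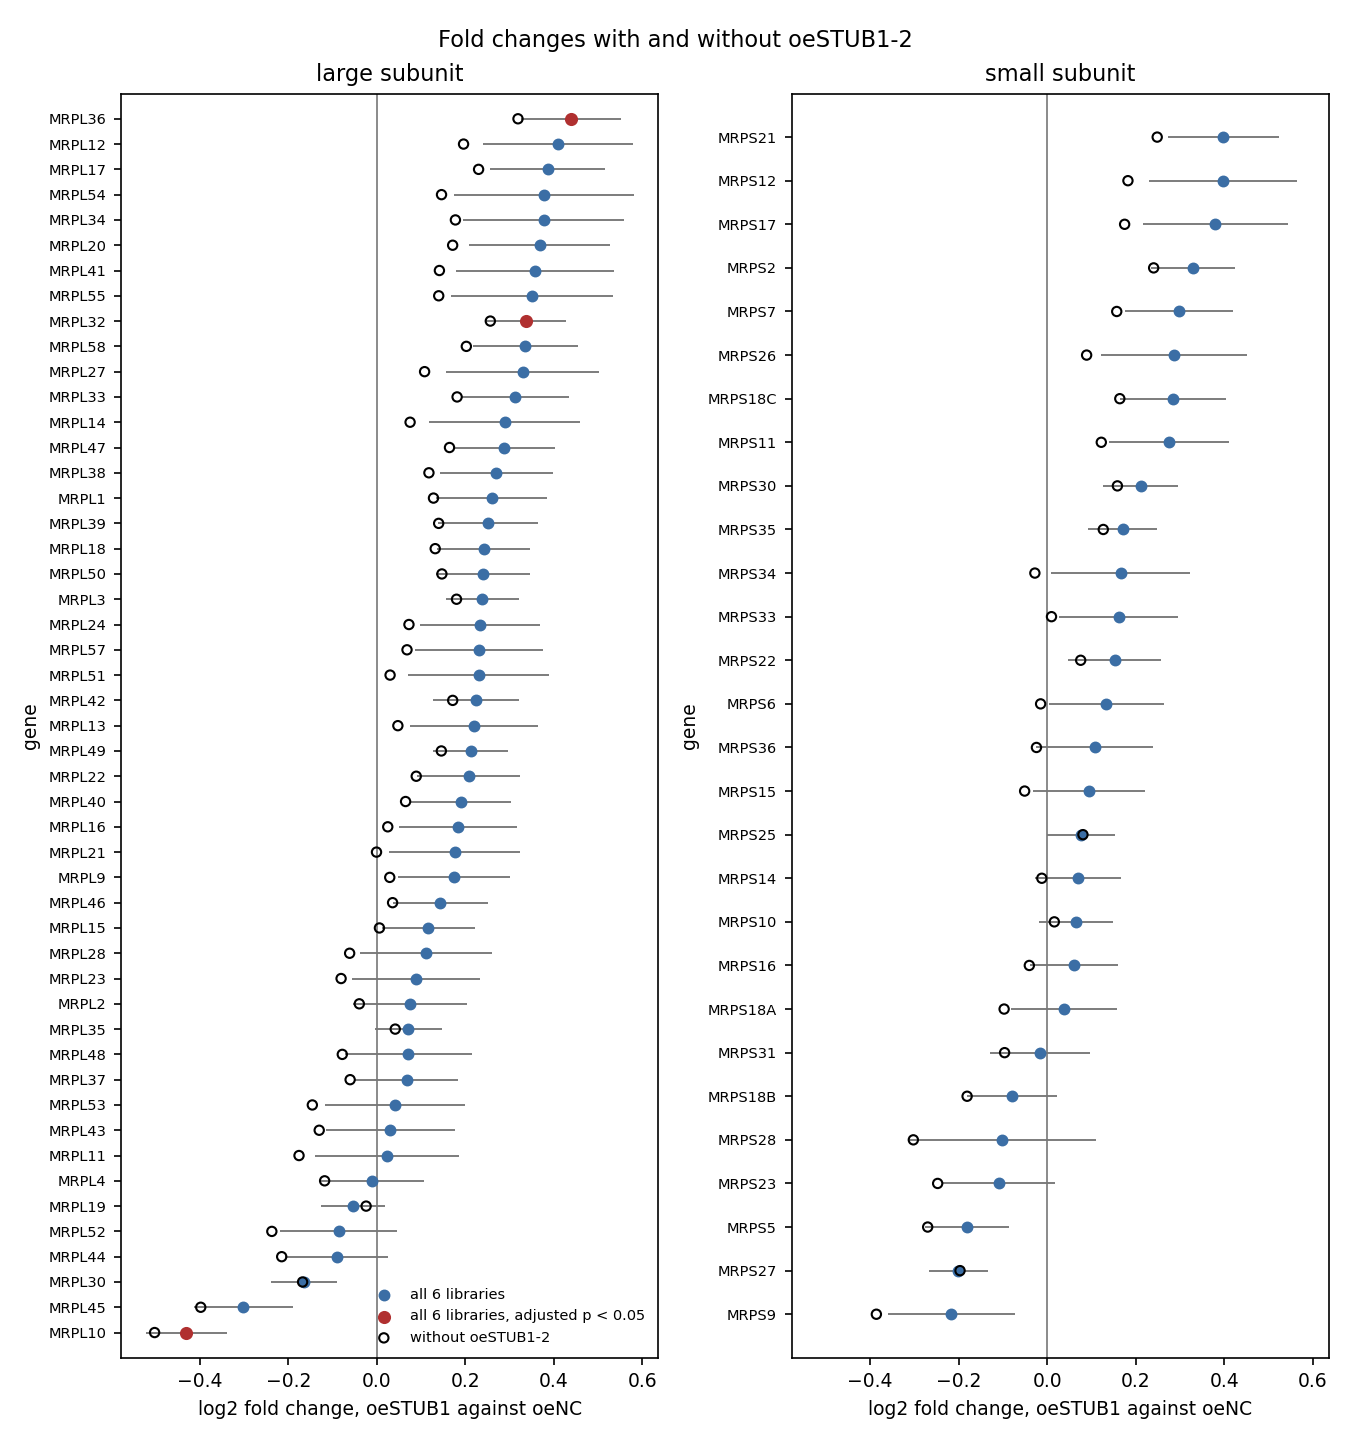
Log2 fold change (x axis, oeSTUB1 against oeNC on log2(FPKM + 0.1)) of each of 49 large and 28 small subunit genes (y axis, ordered by fold change). Filled points are the fit of all 6 libraries with bars of 1 standard error, red where the adjusted p from limma was under 0.05, and open points are the fit without oeSTUB1-2, which lie to the left of the filled ones for most genes.

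MRPL36, a short protein that bacterial large subunits also contain, was 18.7, 18.1 and 19.9 FPKM in oeNC and 23.7, 30.3 and 23.4 FPKM in oeSTUB1. The groups did not overlap, and oeSTUB1-2 was the highest library. The log2 fold change was 0.44 (SE 0.113, adjusted p = 0.0399) and 0.32 without oeSTUB1-2 (adjusted p = 0.00681). It missed the threshold without oeNC-1 (adjusted p = 0.139), oeNC-2 (0.157), oeNC-3 (0.0934) or oeSTUB1-1 (0.0583), and with no filter (0.0671), median-ratio scaling (0.0526) or no trend (0.077). Leaving out each library in turn kept its log2 fold change between 0.32 and 0.50. MRPL36 lies on chromosome 5 from 1798386 to 1801366 on the minus strand of GRCh38 in GENCODE release 29, and its exons share no base with another gene there.

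MRPL32, a large subunit protein that a mitochondrial protease matures before it joins the ribosome, was 40.2, 41.9 and 38.9 FPKM in oeNC and 46.5, 56.9 and 49.8 FPKM in oeSTUB1. All oeSTUB1 libraries were above the controls. The log2 fold change was 0.34 (SE 0.0920, adjusted p = 0.0494) and 0.26 without oeSTUB1-2 (adjusted p = 0.0124). This call was close to the threshold and was lost without oeNC-1 (adjusted p = 0.167), oeNC-2 (0.137), oeNC-3 (0.172) or oeSTUB1-3 (0.0942), and with a pseudocount of 0.01 (0.0516), no filter (0.0707), a filter at 1 FPKM (0.0529), median-ratio scaling (0.0772), no trend (0.0955) or limma-voom (0.0574). Leaving out each library in turn kept its log2 fold change between 0.26 and 0.40. MRPL32 lies on chromosome 7 from 42932200 to 42948958 on the plus strand and shares 24 exon bases with PSMA2 on the other strand. Whether the counting used strand is not given in the sources used here.

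MRPL10, which anchors the flexible stalk that recruits translation factors, went the other way. It was 37.2, 34.8 and 39.6 FPKM in oeNC and 26.1, 30.4 and 26.3 FPKM in oeSTUB1, with no overlap between the groups. MRPL10 fell by 0.43 on the log2 scale (SE 0.0918, adjusted p = 0.0205) and by 0.50 without oeSTUB1-2 (adjusted p = 0.00161). Leaving out one of the other libraries took the adjusted p past the threshold, to 0.0903 without oeNC-1, 0.0577 without oeNC-2, 0.091 without oeNC-3, 0.0646 without oeSTUB1-1 and 0.0641 without oeSTUB1-3. The log2 fold change stayed between -0.50 and -0.38 in these fits. MRPL10 lies on chromosome 17 from 47823272 to 47831534 on the minus strand, and its exons share no base with another gene.

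**Figure D2:**
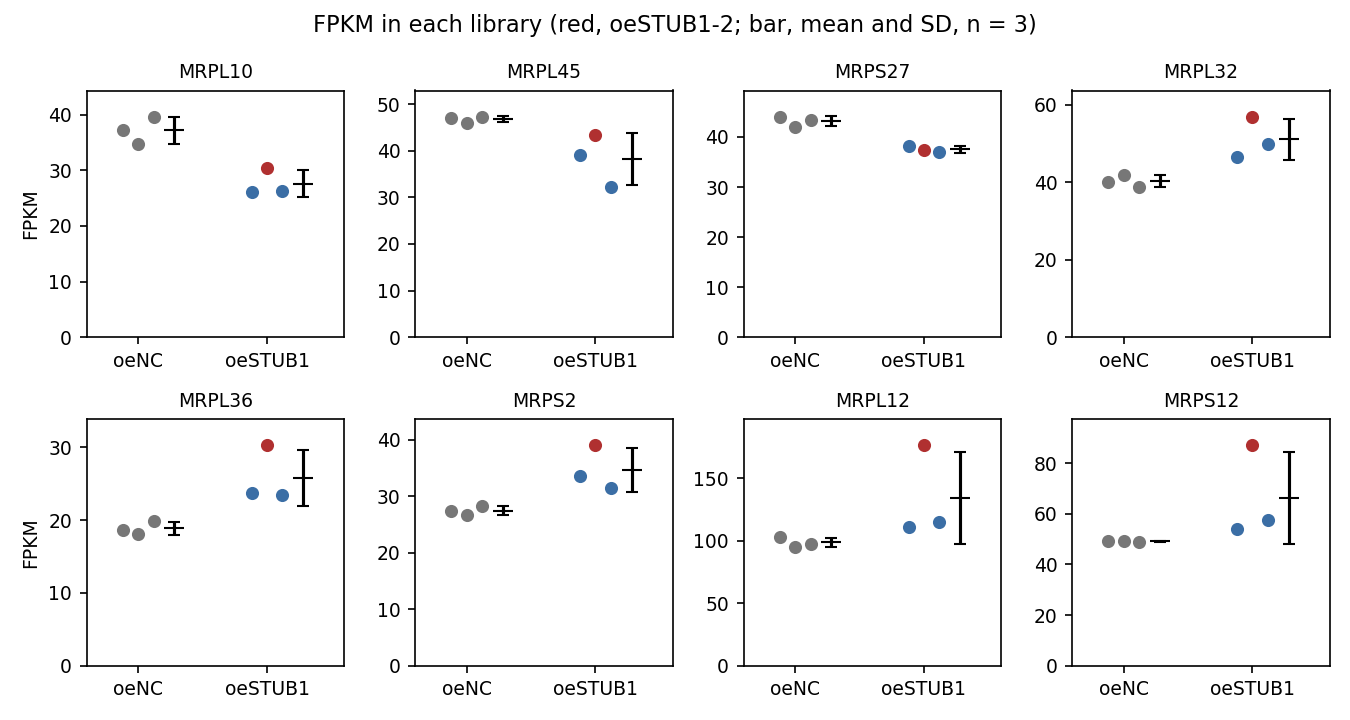
FPKM (y axis, from 0) of 8 genes in the 3 oeNC and 3 oeSTUB1 libraries (x axis), with oeSTUB1-2 in red and bars for the mean and SD of each group (n = 3). MRPL10, MRPL45 and MRPS27 are lower in every oeSTUB1 library than in any oeNC library, and in the other 5 genes oeSTUB1-2 is the highest library.

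The library oeSTUB1-2 held more fragments of these genes than any other. The share of library fragments on them was 0.372%, 0.360% and 0.362% in oeNC and 0.366%, 0.475% and 0.370% in oeSTUB1. The summed level of the large subunit was 1570, 1508 and 1509 FPKM in oeNC and 1571, 2162 and 1595 FPKM in oeSTUB1, and that of the small subunit 789, 760 and 771 FPKM against 772, 1025 and 798 FPKM. Thus oeSTUB1-1 and oeSTUB1-3 lay close to the controls in both subunits, and oeSTUB1-2 was above all 5 other libraries. Gene by gene, oeSTUB1-2 was the highest of the 6 libraries in 70 of 77 genes (90.9%), against 30.4% of all genes tested. It exceeded the mean of oeSTUB1-1 and oeSTUB1-3 in 74 genes (96.1%, against 49.2% of all genes), by a median of 0.40 on the log2 scale in each subunit. The same median over all genes was -0.01. Against the oeNC mean, the median of the large subunit was 0.05 in oeSTUB1-1, 0.46 in oeSTUB1-2 and 0.08 in oeSTUB1-3, and that of the small subunit was -0.02, 0.31 and 0.03.

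**Figure D3:**
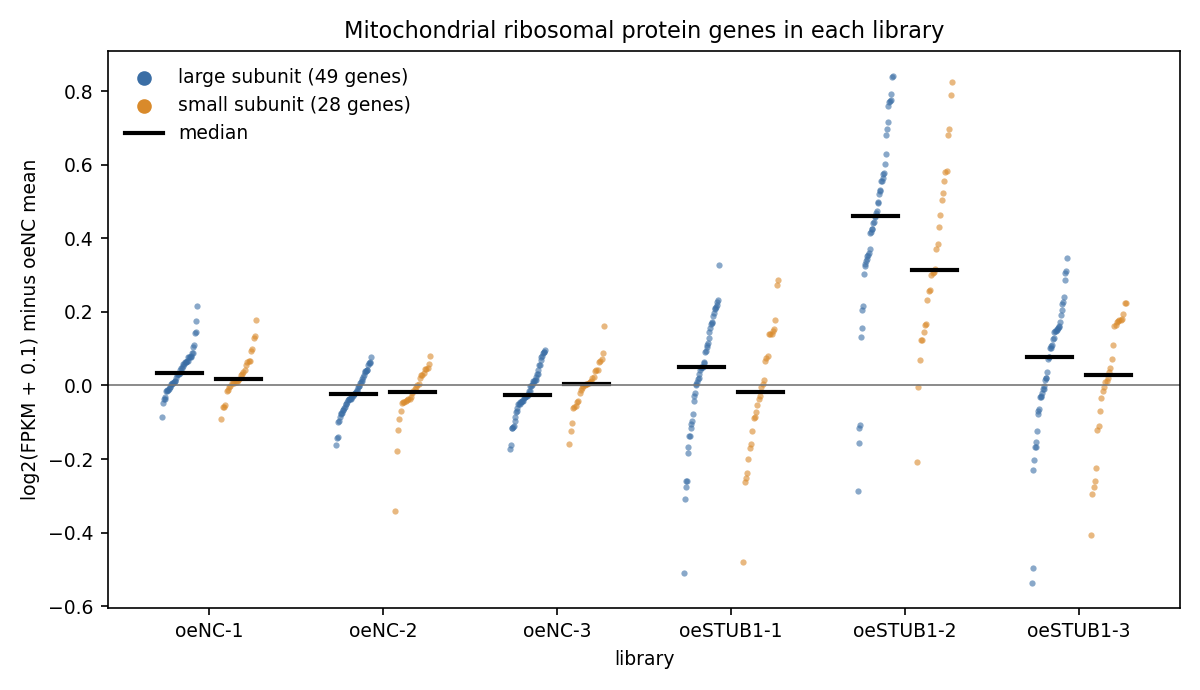
Difference of each gene from its oeNC mean on log2(FPKM + 0.1) (y axis) in the 6 libraries (x axis), for 49 large and 28 small subunit genes, with black lines for the medians. The medians of oeSTUB1-2 are 0.46 and 0.31, and those of the other 5 libraries lie within 0.08 of 0.

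The displacement of oeSTUB1-2 went with gene length. Among genes shorter than 1000 bases its median over the 14 ribosomal protein genes was 0.50 and over all genes 0.38. From 1000 to 2000 bases the medians were 0.43 (38 genes) and 0.32, and from 2000 to 4000 bases 0.31 (18 genes) and 0.12. For 4000 bases and longer they were 0.16 (7 genes) and -0.23. In each class the ribosomal protein genes lay above all genes of that length, a difference that was not tested. Across genes, which share the libraries and are not independent replicates, Spearman's rho between displacement and length was -0.52 for the 77 genes and -0.56 for all 15353. The ribosomal protein genes are short, with a median length of 1550 bases against 3694 bases for all genes tested. MRPL19 (7825 bases) and MRPL30 (4435 bases) were displaced by -0.09 and 0.01, whereas the short MRPL54 (608 bases), a protein of the stalk region that is named after its values were seen, was displaced by 0.69. After each library was corrected for gene length, the median log2 fold change was 0.14 for the large and 0.05 for the small subunit, against 0.008 for all genes.

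**Figure D4:**
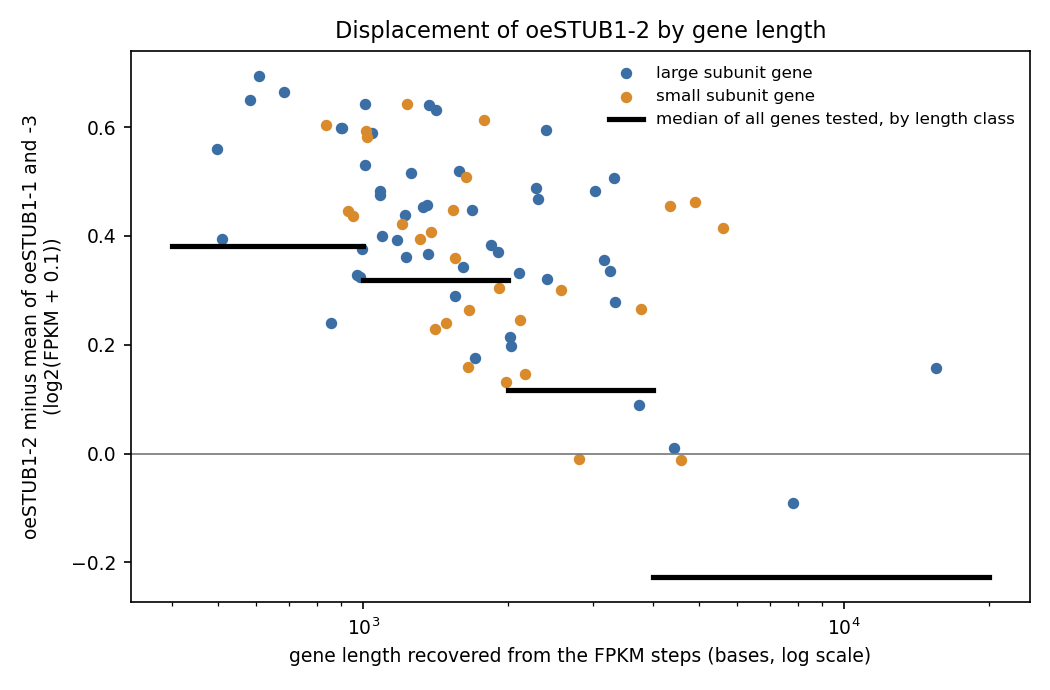
Displacement of oeSTUB1-2 from the mean of oeSTUB1-1 and oeSTUB1-3 on log2(FPKM + 0.1) (y axis) against gene length (x axis, log scale) for large and small subunit genes, with black bars for the median of all genes tested in 4 length classes. The bars fall from 0.38 for the shortest to -0.23 for the longest class, and most points lie above them.

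Without oeSTUB1-2 the shift of the family was small and the calls went both ways. The median log2 fold change was 0.07 for the large subunit and -0.001 for the small subunit, against 0.03 for all genes, and 47 of 77 genes were above 0. In this fit 11 genes rose and 9 fell, which is 26.0% of the genes against 26.8% of all genes, with 14.8% higher and 12.0% lower. In the large subunit 7 rose and 4 fell, and in the small subunit 4 rose and 5 fell. The 3 genes called with all 6 libraries were among these 20. Groups did not overlap in 27 genes that were higher and 13 that were lower, where the shares of all genes were 31.6% and 23.9%. With the correction for gene length and all 6 libraries, 11 genes rose and 4 fell, against 10.9% and 10.7% of all genes. Both fits called 14 genes in common, 10 higher and 4 lower. The higher ones were MRPL12, MRPL17, MRPL32, MRPL33, MRPL36, MRPL58, MRPS2, MRPS7, MRPS12 and MRPS21, and the lower ones were MRPL10, MRPL45, MRPS9 and MRPS27. Of these, MRPL17, MRPS21 and MRPS27 are named here because their values were seen.

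Stretches of the promoters of these 14 genes are shown because the genes were called in both fits. RefSeq promoters (GRCh38.p14) were matched for 69 of the 78 genes and for 13 of the 14. The 250 bases before the start were searched on both strands for the ETS motif CCGGAAG, the NRF1 motif GCGCATG and the YY1 motif GATGGCG, which are elements of factors known from promoters of nuclear genes for mitochondrial proteins. ETS matches occurred in 23 of 69 windows (33.3%, against 13.3% of 13364 promoters of listed coding genes). NRF1 matches occurred in 7 windows (10.1% against 5.54%) and YY1 matches in 5 windows (7.25% against 2.9%). Any of these motifs was found in 46.4% of the windows and in 19.9% of the coding promoters. The coding promoters were taken from listed genes of any level, and no set of like expression was searched. Of the 13 matched genes, 10 rose and 3 fell in both fits. A match was found in 7 of the 10 (not in MRPL12, MRPS7 or MRPS12) and in none of the 3, and any relation between motif and direction was not tested. For each of these 7 a stretch of 30 bases around the match nearest the start is given, read 5′ to 3′ on the strand of the gene, with the match in capitals and the distance counted from its first base. The starts are those of RefSeq. In MRPL17, MRPL32, MRPL36, MRPS2 and MRPS21 GENCODE places the gene start further upstream, so that these stretches lie inside its gene spans. The stretch of MRPL33 reaches into the span by its last bases, and that of MRPL58 ends before the span. The NRF1 motif can overlap its own reverse complement. A match is a description of letters and not a measured binding site.
MRPL17, NRF1 motif, 43 bases before the start, chr11:6683365-6683394, minus strand: tccgagctaagGCGCATGcgttccctgaaa
MRPL32, NRF1 motif, 39 bases before the start, chr7:42932326-42932355, plus strand: tctgtgcctgtGCGCATGctgaaagcaggg
MRPL33, ETS motif, 8 bases before the start, chr2:27771689-27771718, plus strand: tcttccagaaccgggccgtgccCCGGAAGc
MRPL36, YY1 motif on the other strand, 36 bases before the start, chr5:1799855-1799884, minus strand: cccccccccgcCGCCATCttccttcctggc
MRPL58, ETS motif, 8 bases before the start, chr17:75012640-75012669, plus strand: gaccgcggggaggaagcgcccgCCGGAAGc
MRPS2, YY1 motif, 41 bases before the start, chr9:135500630-135500659, plus strand: ggccccgcgcgGATGGCGacggaaggggag
MRPS21, ETS motif on the other strand, 11 bases before the start, chr1:150293831-150293860, plus strand: ggcgattccgtaatttccgCTTCCGGtagt

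Among the large subunit genes that rose without oeSTUB1-2, MRPL12, the stalk protein that MRPL10 anchors, had the highest level. It was 103, 95.3 and 97.7 FPKM in oeNC and 111, 176 and 115 FPKM in oeSTUB1, with oeSTUB1-2 far above the others. Its log2 fold change was 0.41 (SE 0.17, adjusted p = 0.153) and 0.20 without oeSTUB1-2 (adjusted p = 0.0234). In GENCODE release 29 its exons share 701 bases with the gene AC139530.2 on the same strand, so its level may be uncertain. Whether the counting used that gene is not given in the sources used here. MRPL58, a peptidyl-tRNA hydrolase built into the ribosome, was 26.4, 26.6 and 24.6 FPKM in oeNC and 30.4, 39.3 and 29.2 FPKM in oeSTUB1. It rose by a log2 fold change of 0.20 without oeSTUB1-2 (SE 0.0534, adjusted p = 0.0304) and had 0.34 with all libraries (adjusted p = 0.107). MRPL17, at the tunnel exit, was 23.3, 22.5 and 23.5 FPKM against 26.9, 37.6 and 27.4 FPKM. All of its oeSTUB1 values exceeded the controls, and its log2 fold change was 0.39 with all libraries (adjusted p = 0.0923) and 0.23 without oeSTUB1-2 (adjusted p = 0.0109). MRPL33 was 92.8, 85.6 and 83.6 FPKM against 98.3, 130 and 99.6 FPKM, with log2 fold changes of 0.31 (adjusted p = 0.129) and, without oeSTUB1-2, 0.18 (adjusted p = 0.0429), and 324 exon bases shared with BABAM2 on the same strand.

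The small subunit genes that rose without oeSTUB1-2 included MRPS12, a protein of the decoding centre. It was 49.1, 49.2 and 49 FPKM in oeNC and 54.1, 87.0 and 57.4 FPKM in oeSTUB1. The controls were nearly identical and all 3 oeSTUB1 libraries lay above them, but the spread of the latter left the 6-library comparison at an adjusted p of 0.160 from limma. The log2 fold change was 0.40 there and 0.18 without oeSTUB1-2 (SE 0.0436, adjusted p = 0.0217). MRPS12 shares 349 exon bases with the antisense gene SARS2, which encodes the mitochondrial seryl-tRNA synthetase. MRPS2 was 27.4, 26.7 and 28.3 FPKM in oeNC and 33.5, 39.0 and 31.4 FPKM in oeSTUB1. It was the small subunit gene nearest to the threshold with all libraries, at 0.33 (SE 0.0946, adjusted p = 0.0585), and it rose by 0.24 without oeSTUB1-2 (adjusted p = 0.0140). MRPS21, a short protein with a bacterial counterpart, was 31.5, 31.3 and 30.9 FPKM against 37.7, 50.6 and 36.5 FPKM. Its log2 fold change was 0.40 with all libraries (adjusted p = 0.0776) and 0.25 without oeSTUB1-2 (adjusted p = 0.00630). MRPS7, a protein of the head of the subunit, was 66.8, 63.4 and 61.4 FPKM against 70.8, 95.4 and 71.6 FPKM, with 0.30 on the log2 scale (adjusted p = 0.153) and, without oeSTUB1-2, 0.16 (adjusted p = 0.0494), just inside the threshold.

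Among the 9 genes that fell without oeSTUB1-2, that library differed from the mean of its partners by -0.01 in MRPS27 to 0.51 in MRPS9 on the log2 scale. MRPL45, which ties the tunnel exit to the inner membrane, was 46.9, 46.0 and 47.2 FPKM in oeNC and 39.0, 43.3 and 32.2 FPKM in oeSTUB1. All 3 oeSTUB1 libraries were below the controls, with a log2 fold change of -0.30 (SE 0.111, adjusted p = 0.117) and -0.40 without oeSTUB1-2 (adjusted p = 0.0102). MRPS27, a protein with pentatricopeptide repeats, was 44.0, 42.1 and 43.3 FPKM in oeNC and 38.3, 37.3 and 36.9 FPKM in oeSTUB1. Here oeSTUB1-2 sat between its partners, and the log2 fold change was -0.20 with all libraries (SE 0.0676, adjusted p = 0.0919) and without oeSTUB1-2 (SE 0.0443, adjusted p = 0.0173). MRPS9, in the head of the small subunit, was 25.3, 24.8 and 25.4 FPKM against 18.0, 27.4 and 20.5 FPKM. In MRPS9 oeSTUB1-2 was the highest of the 6 libraries and oeSTUB1-1 and oeSTUB1-3 were the lowest. Its log2 fold change was -0.22 with all libraries (adjusted p = 0.356) and -0.39 without oeSTUB1-2 (adjusted p = 0.00512). MRPS5, at the entrance for messenger RNA, was 20.6, 19.8 and 21.0 FPKM against 17, 20.4 and 16.9 FPKM, with -0.18 on the log2 scale (adjusted p = 0.244) and, without oeSTUB1-2, -0.27 (adjusted p = 0.00801). MRPL44, MRPL52, MRPS18B and MRPS23 fell by between 0.18 and 0.25 on the log2 scale in the same fit. In each of these oeSTUB1-2 lay above every oeNC library. With all libraries their log2 fold changes were between -0.11 and -0.08 and did not pass the test. MRPL3 rose by 0.18 without oeSTUB1-2. MRPL3, MRPL52 and MRPS23 are likewise named after their values were seen.

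The stalk held both directions. Of its 5 genes MRPL10 fell, and MRPL12 (0.41), MRPL54 (0.38), MRPL53 (0.04) and MRPL11 (0.02) had log2 fold changes above 0 that did not pass the test with all libraries. MRPL11, also named outside the rule, and MRPL54 were at -0.18 and 0.15 without oeSTUB1-2, MRPL53 at -0.15. Their median was 0.04, and -0.15 without oeSTUB1-2. For the central protuberance, the crown of the large subunit, all 8 genes of the list used were above 0 with a median of 0.26. None of them was called by limma or limma-voom. At an unadjusted p under 0.05 in limma 1 was higher and 0 lower, where 2454 and 2100 of all 15353 genes were. Without oeSTUB1-2 the median of the 8 was 0.11, and MRPL58 rose. At the tunnel exit 5 of 6 genes were above 0 with a median of 0.22, and MRPL45 stood at -0.30. Without oeSTUB1-2 the median there was 0.08 with 4 of 6 above 0. Genes with bacterial counterparts (47 tested, median 0.21) held all 3 calls. Those particular to mitochondria (30 tested, median 0.16) held 0 calls in limma and limma-voom. At an unadjusted p under 0.05 in limma 3 of them were higher and 2 lower, against the same 2454 and 2100 of 15353. Without oeSTUB1-2 the medians of both classes were 0.05, and 10 genes with bacterial counterparts rose and 4 fell, while 1 of the others rose and 5 fell. These calls are 29.8% and 20% of the classes, near the 26.8% of all genes, with 14.8% higher and 12.0% lower. The difference between these classes was not tested.

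The symbols do not follow the place of every protein. MRPS30 and MRPS18A sit in the large subunit of the mature ribosome, and counting them there gave medians of 0.21 for 51 large and 0.12 for 26 small subunit genes. MRPS30 was 16.6, 16.9 and 18.4 FPKM in oeNC and 19.1, 21.6 and 19.6 FPKM in oeSTUB1, all above the controls, and its log2 fold change was 0.21 (adjusted p = 0.140). The genes MRPS18A, MRPS18B and MRPS18C are related to the same bacterial protein and had log2 fold changes of 0.04 (below 0 with quantile normalization, the length correction or without oeSTUB1-2), -0.08 and 0.28, with adjusted p-values from limma of 0.865, 0.647 and 0.160. Without oeSTUB1-2 MRPS18B fell by 0.18 (adjusted p = 0.0451), and the values of the others were -0.10 and 0.16. MRPS18C shares 1956 exon bases with the antisense gene ABRAXAS1, and MRPS18A shares 604 with RSPH9. MRPS36, whose product is now placed in the 2-oxoglutarate dehydrogenase complex, stood at 0.11 on the log2 scale (adjusted p = 0.632) and -0.02 without oeSTUB1-2.

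The genes on chromosome 9 were all above 0, and most of those on chromosome 2 were below. Of the 8 genes on chromosome 2, 3 were above 0, MRPL33 (0.31), MRPL35 (0.07) and MRPL53 (0.04, below 0 with quantile normalization, the length correction or without oeSTUB1-2). The other 5 were MRPL19 (-0.05, and 0.0001 with the length correction), MRPL30 (-0.16), MRPL44 (-0.09), MRPS5 (-0.18) and MRPS9 (-0.22). None of the 8 was called with all libraries in limma or limma-voom. At an unadjusted p under 0.05 in limma 1 was higher and 0 lower, and of all 1031 tested genes of chromosome 2, 70 were higher and 338 lower. The median of the 8 was -0.07 and that of all 1031 was -0.21, with 22.7% above 0. MRPL33 rose and MRPL44, MRPS5 and MRPS9 fell without oeSTUB1-2, where the median was -0.16. On chromosome 9, MRPL41 (0.36), MRPL50 (0.24) and MRPS2 (0.33) were all above 0, as were 66.7% of the 604 genes there, with medians of 0.33 and 0.16. Without oeSTUB1-2 the medians were 0.15 and 0.17, with MRPL41 at 0.14, MRPL50 at 0.15 and MRPS2 at 0.24, so that the median of the 3 genes no longer lay above that of the chromosome. The 66 genes on other chromosomes had a median of 0.19, or 0.07 without oeSTUB1-2. On chromosome 17, which carries 8 of the genes, MRPL10 fell, and without oeSTUB1-2 MRPL12, MRPL58 and MRPS7 rose and MRPL10, MRPL45 and MRPS23 fell. That is 75% of the 8, against 26.8% of all genes tested. Chromosome 17 is named outside the rule, all of its genes were not tallied, and a relation to the chromosome was not tested.

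Few genes of the machinery around the mitochondrial ribosome passed the test. Of 91 genes in 6 lists, 1 did so, against 13.6% of all genes. It was MTERF3, a member of the mitochondrial termination factor family with a role in large subunit assembly. It was 12.0, 12.8 and 11.6 FPKM in oeNC and 15.6, 17.5 and 14.9 FPKM in oeSTUB1, with a log2 fold change of 0.40 (SE 0.0895, adjusted p = 0.0258) and 0.33 without oeSTUB1-2 (adjusted p = 0.00849). The call was lost without oeNC-1 (adjusted p = 0.112), oeNC-2 (0.0763), oeNC-3 (0.105) or oeSTUB1-1 (0.0594) and with no trend (0.052). The 5 mitochondrial ribosomal proteins with other symbols had a median of 0.25, and of 0.01 without oeSTUB1-2, so that 1 library carried most of it. CHCHD1 was at 0.33 with all libraries and 0.14 without oeSTUB1-2, AURKAIP1 at 0.25 and 0.01, GADD45GIP1 at 0.25 and 0.06, DAP3 at 0.09 and 0.002, and PTCD3 at -0.16 and -0.15. The medians were 0.05 for 24 assembly factors (0.04 without oeSTUB1-2), 0.04 for 16 translation factors (-0.02), 0.12 for 19 mitochondrial aminoacyl-tRNA synthetases (0.10) and -0.01 for 14 genes of mitochondrial transcription and biogenesis (-0.02). The last list holds NRF1 (-0.18, and -0.20 without oeSTUB1-2), GABPA (-0.18 and -0.06) and YY1 (-0.04 and -0.01), which encode factors that bind the motifs searched or part of such a factor. The 13 messenger RNAs of the mitochondrial genome, the templates of this ribosome, had a median of 0.02 (0.03 without oeSTUB1-2 and -0.07 with the length correction) and took 8.97% to 9.35% of the fragments in 5 libraries and 8.40% in oeSTUB1-2.

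Without oeSTUB1-2, 5 of the 91 genes rose and 6 fell, against 14.8% and 12.0% of all genes. Those that rose were MTERF3, GFM1, CARS2, TEFM and CYTB. The genes that fell were NOA1, a GTPase of small subunit assembly, MTIF2, the initiation factor that brings the initiator tRNA, LRPPRC, which stabilises mitochondrial messenger RNAs, SARS2, POLRMT, the mitochondrial RNA polymerase, and ND5. The mean of LRPPRC was 76.1 ± 1.81 FPKM in the controls and 63.7 ± 3.12 FPKM in oeSTUB1 (SD, n = 3 each). Its log2 fold change was -0.26 (adjusted p = 0.0581) and -0.21 without oeSTUB1-2 (adjusted p = 0.00948). MTIF2 and LRPPRC lie on chromosome 2, where the median of all tested genes was -0.21, and -0.18 without oeSTUB1-2. The part of this in their falls was not tested. Apart from MTERF3 these genes are named after their values were seen.

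Other short nuclear genes for large complexes gave a frame for the shift. The 79 tested cytosolic ribosomal protein genes stood at a median of 0.02 with 1 higher and 0 lower calls, and the median displacement of oeSTUB1-2 was 0.52. Without oeSTUB1-2 their median was -0.16, and 43 fell and 1 rose, where 12.0% of all genes fell and 14.8% rose. With the length correction and all libraries their median was -0.05, and 5 fell and 1 rose, where 10.7% and 10.9% of all genes did. The 37 genes of complex I, which contains products of the mitochondrial ribosome, had a median of 0.22 and 1 higher call. It was 0.03 without oeSTUB1-2, with 4 higher and 2 lower calls, and oeSTUB1-2 was displaced by 0.50. With the length correction and all libraries the complex I median was 0.16, with 5 higher and 0 lower calls, and that of the large subunit was 0.14. In all these families oeSTUB1-2 lay above its partners, and leaving it out lowered the median. The differences between families were not tested.

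**Figure D5:**
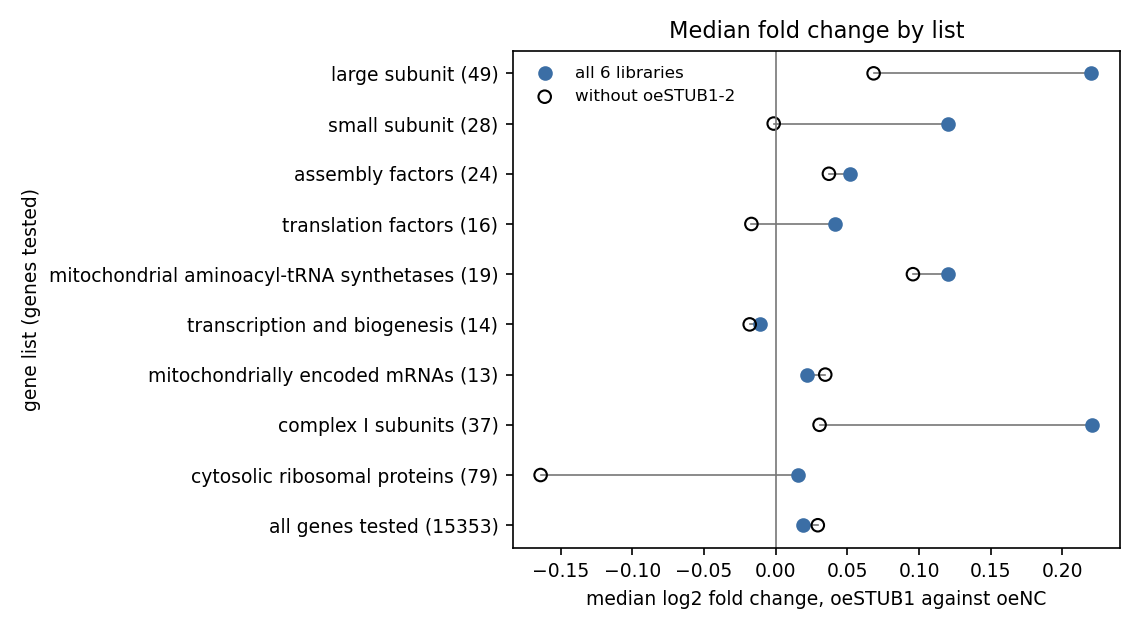
Median log2 fold change (x axis, oeSTUB1 against oeNC) of each gene list (y axis, number of genes tested in brackets), with all 6 libraries as filled points and without oeSTUB1-2 as open points. The median falls from 0.22 to 0.07 for the large and from 0.12 to -0.001 for the small subunit, and from 0.02 to -0.16 for cytosolic ribosomal proteins.

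Overlap with neighbouring genes may limit part of these values. In GENCODE release 29, 41 of the 78 genes share exon bases with another gene, 16 of them on the same strand and 29 on the other strand. The median log2 fold change was 0.14 for the 40 tested genes that share bases and 0.21 for the 37 that do not. The annotation release behind the FPKM values is not given in the sources used here. Recovered gene lengths can differ from those of GENCODE, as in MRPS18C with 1550 against 4866 bases. The overlaps may therefore not hold for the exons that were counted.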

How the data were processed

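RNA-seq was performed on 6 libraries of TFK1 cells, 3 oeNC and 3 oeSTUB1, grouped by the sample labels. The table that the authors deposited holds FPKM values of 23569 gene symbols. The submitters' processing notes name fastp 0.20.1, HISAT2 2.1.0, HTSeq 0.11.2, R 3.2.0, DESeq2 1.22.2 and the build GRCh38.p13. Whole fragments, gene lengths and library totals were recovered from the FPKM steps for all 23569 genes (residual up to 4.9e-06 FPKM). A common divisor can be missing from the recovered fragments of a gene. Taken over all genes, libraries of the same group differed by more than counting error, with chi-square values of 3.37 and more in the Results. This need not hold for a single gene and was not tested gene by gene. MRPS12, for example, varied little in oeNC, at 49.1, 49.2 and 49.0 FPKM from 2105, 2107 and 2226 fragments. The FPKM scale ties short and long genes to the length profile of a library.

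The groups were compared by limma 3.58.1 under R 4.3.3, two-sided and with an intensity trend, in the 15353 genes whose mean reached 0.1 FPKM, as log2(FPKM + 0.1), with Benjamini-Hochberg adjustment over all of them and calls at an adjusted p under 0.05. On this scale the change of low genes is understated. The genes, lists and tests were chosen with earlier results of these data known. Named were STUB1, per subunit the 5 highest and 3 lowest levels, called genes, genes of chromosomes 2 and 9 and a short list of structural proteins, and other genes are marked. Lists are given by counts and medians, without set tests. The other settings tried were a pseudocount of 1 or 0.01, a filter at 1 FPKM or none, median-ratio scaling, quantile normalization, lowess correction for length (span 0.3), no trend, the replicate number as a block, limma-voom on recovered fragments and leaving out each library. Positions are from GENCODE release 29, promoters from RefSeq. Scripts were tested on simulated data. Python 3.11.15, numpy 2.4.6, pandas 2.3.3, scipy 1.17.1 and matplotlib 3.10.9 were used.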

Additional observations from a re-analysis of the deposited data

How the results depend on the processing

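The counts of called genes depended on the processing. Higher calls in the large subunit (2) became 1 with a pseudocount of 0.01, a filter at 1 FPKM or limma-voom, 0 with no filter, median-ratio scaling, no trend or the replicate block, and 7 with the length correction. Lower calls there (1) became 2 with quantile normalization or the length correction and 0 with the replicate block. In the small subunit the counts (0 higher, 0 lower) became 4 and 2 with the length correction, and 1 was lower with quantile normalization. Leaving out one library gave 0 to 7 higher and 0 to 4 lower large subunit genes, 0 to 4 higher and 0 to 5 lower small subunit genes, and medians of 0.07 to 0.28 and -0.001 to 0.19. The upper end of each count came from the fit without oeSTUB1-2. Of the genes of the surrounding machinery (1 higher, 0 lower), 2 were higher with quantile normalization or limma-voom, 4 with the length correction and 0 without a trend, and 2 were lower with median-ratio scaling and 4 with quantile normalization or the length correction. Leaving out one library gave 0 to 5 higher and 0 to 6 lower. Over all genes, 1076 were higher and 1012 lower, and with the length correction 1675 and 1647, and leaving out one library gave 477 to 2274 and 456 to 1838. With limma-voom 1095 were higher and 1069 lower. Among the genes named by rule, signs reversed for MRPL19 with the length correction (0.0001), for MRPL53 and MRPS18A with quantile normalization (-0.0233 and -0.0317) and the length correction (-0.0463 and -0.0443), and without oeSTUB1-2 for MRPL53, MRPS18A, MRPS34 and MRPS36. Without oeSTUB1-1 those of MRPL44 and MRPS18B reversed, and without oeSTUB1-3 that of MRPS28. Leaving out one library gave MRPL44 -0.2147 to 0.0016, MRPL53 -0.1456 to 0.1911, MRPS18A -0.0975 to 0.1192, MRPS18B -0.1811 to 0.0072, MRPS28 -0.3025 to 0.051, MRPS34 -0.028 to 0.2758 and MRPS36 -0.0244 to 0.2398. Over all 77 genes, 63 were above 0 with all libraries and 47 without oeSTUB1-2. The cause was not tested. The groups share replicate numbers. Deviations from the group mean correlated at -0.049, -0.052 and 0.062 for libraries with the same number and at -0.097 to 0.11 for unlike numbers. The distance of oeSTUB1-2 from its partners shapes the deviations of every oeSTUB1 library, so this check cannot show whether the numbers pair the libraries. As a block the replicate numbers left 0 of the 3 calls and 741 higher and 747 lower among all genes. The 3 libraries a group limit what small shifts can be called, and the levels of genes whose counted exons are shared cannot be divided between them.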
